A study of Mus musculus with 12 samples.

Results

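The 7 transcripts described here are Atp6v0c, its processed pseudogene Atp6v0c-ps2, the processed pseudogene Gm9825, the predicted or noncoding transcripts Gm36684, 6430562O15Rik and Gm49980, and the gene model AC149090.1, which carries only a clone name. They were chosen by their counts, which lay far apart between mouse hearts labelled with different Pde10a genotypes. Those genotype differences are therefore given as a description, with no test. The 7 are among 55453 symbols listed for every library, and 7 of the 7 passed the filter on low counts, which kept 14757 genes. Atp6v0c-ps2 and Gm36684 had at most 5 counts in any WT library. Gm9825 had at most 12 and reached the filter's level in too few WT libraries. These transcripts therefore passed through the libraries labelled KO.

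RNA from heart tissue of C57BL/6J mice was sequenced in 12 libraries, 3 mice in each of 4 groups. The groups were PDE10A WT mice given vehicle (mice 1, 2 and 3), PDE10A WT mice given doxorubicin (DOX; mice 21, 22 and 24), PDE10A knockout (KO) mice given vehicle (mice veh_3393, veh_3394 and veh_3395) and PDE10A KO mice given DOX (mice 18, 19 and 20). PDE10A is a phosphodiesterase that degrades cAMP and cGMP, and DOX is an anthracycline cancer drug that damages the heart. Per the labels' protocols, DOX was 1 intraperitoneal bolus of 15 mg/kg followed for 7 days. Mice were of either sex, ages are not given, and the kind of Pde10a allele is not stated. The same protocol describes the PDE10A inhibitor TP-10 or its vehicle before DOX; no library is labelled with TP-10, and whether these mice had its vehicle is not stated.

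Library totals ranged from 23846398 to 32921876 counts. The 8 ventricular cardiomyocyte markers were counted in every library, with a summed level of 50884 to 81369 CPM (counts scaled to a common depth). Pde10a itself, the targeted gene, was counted at 76, 29 and 47 in WT vehicle mice, 75, 57 and 62 in WT DOX mice, 245, 315 and 214 in KO vehicle mice and 210, 232 and 236 in KO DOX mice. All 6 libraries labelled KO were above all 6 labelled WT, which goes against a loss of the transcript; a count over the whole gene cannot show which exons were read. Groups are therefore named by their labels throughout. The 4 atrial markers, of which 2 were counted in every library, stood apart in 2 KO-labelled hearts, those of veh_3394 and mouse 18, at 1264 and 1088 CPM in sum, against 1.07 to 46.2 CPM in the other 10 libraries.

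Atp6v0c encodes the small membrane subunit that forms the rotating proteolipid ring of the vacuolar proton pump, the V-ATPase, which acidifies lysosomes, endosomes and secretory vesicles. A processed pseudogene is a copy of a spliced messenger RNA that was inserted elsewhere in the genome, so it lacks introns and can match its parent gene almost base for base. A short read from such a stretch can fit both places, and the count of each then depends on the few bases that differ and on how the aligner and the counter treat reads with several matches. How such reads were counted here is not given in the sources used here. Long noncoding transcripts are long RNAs without a known protein product. Gene models with Gm numbers, Rik suffixes or clone names have mostly not been assigned a function.

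Positions are those of GENCODE M21 on GRCm38, matched by symbol, since the build of the deposited counts is not named. Atp6v0c lies on the minus strand at chr17:24163866-24169702, 15.2 Mb past the end of Pde10a (chr17:8525372-8986648). Atp6v0c-ps2, which RefSeq lists as a transcribed pseudogene, is a single-exon processed pseudogene on the plus strand at chr6:37806086-37806550. Over the whole 465 bases of the pseudogene, which match coding sequence from 3 exons of Atp6v0c, the copy differs from its parent at 1 base, T111C, counted from 1 at the first aligned base on the coding strand (the parent's base is written first). Gm9825 is a single-exon processed pseudogene on the minus strand at chr6:7982541-7983383. RefSeq lists Gm9825 as another name of Rnps1-ps, and its whole length of 843 bases matched the coding sequence of Rnps1, a splicing and RNA surveillance factor on the plus strand at chr17:24414565-24425901. Rnps1 starts 244863 bases past the end of Atp6v0c, so both parents are on chromosome 17 and both pseudogenes on chromosome 6. Gm9825 differed from Rnps1 at 5 bases, C171A, C260T, T489C, T510C and C684T, an identity of 99.407% against 99.785% for the Atp6v0c pair. Below, 91 bases of each sequence around these differences show how little a read has to tell the copies apart. The capital letter marks each differing base. The Atp6v0c window covers positions 66 to 156, is joined from exons 1 and 2 within chr17:24164806-24169219, and matches chr6:37806151-37806241. The Rnps1 window covers positions 454 to 544 in exon 6 at chr17:24422153-24422243 and matches chr6:7982840-7982930. All 4 sequences are GENCODE M21 transcripts, written on their own coding strand.
Atp6v0c: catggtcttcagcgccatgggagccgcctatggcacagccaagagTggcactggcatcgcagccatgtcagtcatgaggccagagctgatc
Atp6v0c-ps2: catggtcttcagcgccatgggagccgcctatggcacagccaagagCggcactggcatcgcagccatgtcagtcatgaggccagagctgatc
Rnps1: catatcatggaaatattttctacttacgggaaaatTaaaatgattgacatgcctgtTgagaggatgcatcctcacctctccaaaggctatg
Gm9825: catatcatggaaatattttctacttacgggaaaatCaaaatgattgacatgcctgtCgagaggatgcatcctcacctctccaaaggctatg

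Hearts labelled KO had fewer reads assigned to Atp6v0c and many assigned to its pseudogene, and the reads of both together varied far less. Atp6v0c was counted at 901, 979 and 983 in WT vehicle mice 1, 2 and 3, and at 1303, 1247 and 1808 in WT DOX mice 21, 22 and 24. In KO vehicle mice veh_3393, veh_3394 and veh_3395 it was counted at 185, 199 and 142. In KO DOX mice 18, 19 and 20 it was counted at 145, 639 and 646. Every library labelled KO was thus below every WT library, but KO DOX mice 19 and 20 lay between the KO vehicle mice and the WT mice, whereas mouse 18 lay with the KO vehicle mice. In CPM, Atp6v0c averaged 37.6 ± 3.36 (SD, n = 3) in WT vehicle, 48.1 ± 3.51 in WT DOX, 6.87 ± 0.739 in KO vehicle and 17.995 ± 10.7 in KO DOX hearts. The order from high to low was WT DOX, WT vehicle, KO DOX and KO vehicle, and the last pair of groups overlapped. From pooled counts, WT was 5.42-fold (95% exact interval 4.93 to 5.96) above KO under vehicle and 2.66-fold (2.51 to 2.83) above it under DOX. These intervals, like all on pooled counts or shares below, cover counting error only.

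Atp6v0c-ps2 ran the other way. It was counted at 1, 2 and 0 in WT vehicle mice and at 3, 2 and 5 in WT DOX mice. The counts were 536, 624 and 467 in KO vehicle mice veh_3393, veh_3394 and veh_3395, and 543, 324 and 316 in KO DOX mice 18, 19 and 20. The pseudogene was nearly absent from WT counts and had at least 316 counts in each library labelled KO, with mice 19 and 20 the lowest of the 6. Mean levels were 0.0379 ± 0.0350 CPM (SD, n = 3) in WT vehicle, 0.108 ± 0.0356 in WT DOX, 21.3 ± 1.97 in KO vehicle and 15.1 ± 5.41 in KO DOX hearts, and the KO vehicle and KO DOX groups overlapped. From pooled counts KO was 545-fold (186 to 2645) above WT under vehicle, on 3 WT counts, and 135-fold (73.3 to 283) above it under DOX, on 10 WT counts. Per kilobase of annotated exon, the pseudogene's level in KO vehicle hearts was 45.8 RPKM against 2.03 RPKM for Atp6v0c. In WT vehicle hearts it was 0.0814 against 11.1 RPKM. The exon lengths used were 465 bases for the pseudogene and 3384 bases for Atp6v0c, whose aligned transcript has 1183 bases. These RPKM values thus depend on the length chosen and on how reads matching both places were assigned, which is not given. The other annotated near-identical copy, Atp6v0c-ps1 on chromosome 7 (97.2% identity), had at most 2 counts in any library and was not tested.

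The sum of Atp6v0c and Atp6v0c-ps2 averaged 37.7 ± 3.34 CPM (SD, n = 3) in WT vehicle, 48.2 ± 3.54 in WT DOX, 28.2 ± 2.61 in KO vehicle and 33.1 ± 5.31 in KO DOX hearts. Over the 12 libraries the highest value was 9.12 times the lowest for Atp6v0c alone and 2.01 times the lowest for the sum. The coefficient of variation was 63.6% for Atp6v0c, 110% for Atp6v0c-ps2 and 22.8% for the sum. The genotype difference did not vanish in the sum: WT libraries stayed above KO libraries within each treatment, by 1.32-fold (1.252 to 1.401) under vehicle and 1.46-fold (1.39 to 1.53) under DOX from pooled counts. The highest KO sum, 37.1 CPM in DOX mouse 20, was above the lowest WT vehicle sum, 33.9 CPM in mouse 2.

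**Figure D1:**
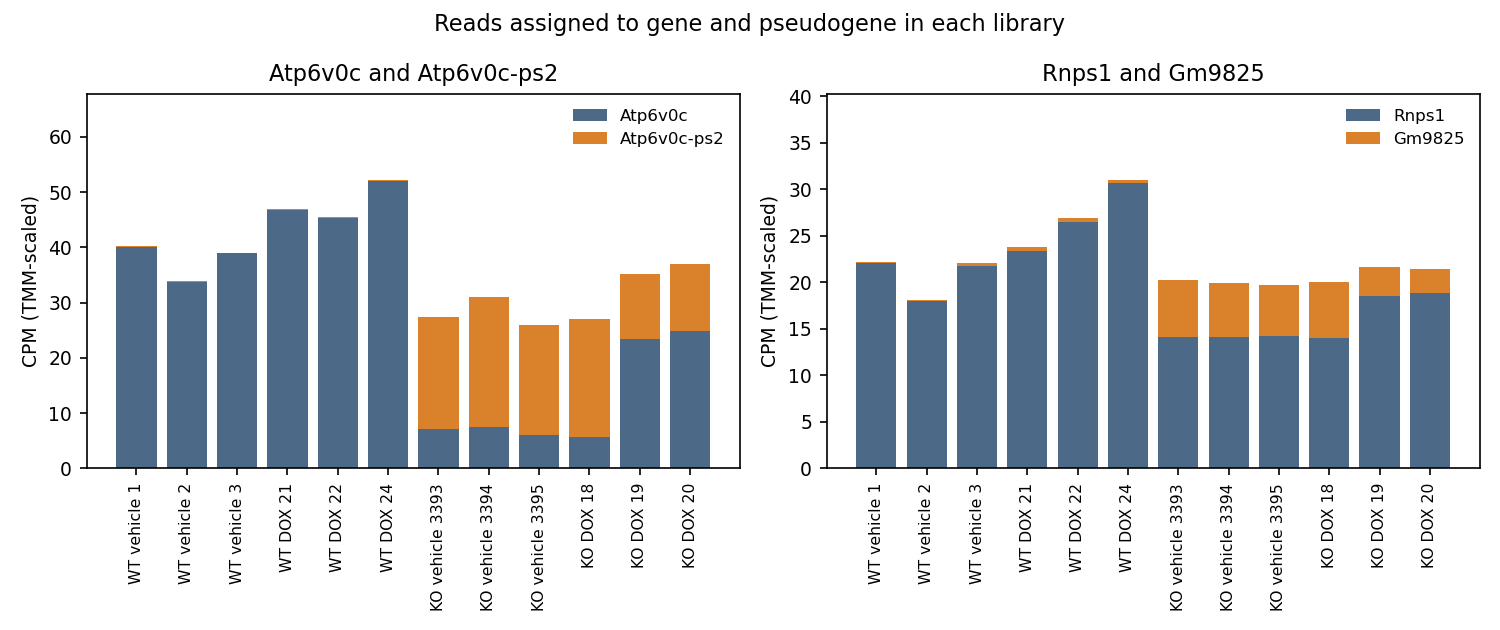
Stacked bars of the level in CPM in each of the 12 libraries for Atp6v0c with Atp6v0c-ps2 (left) and Rnps1 with Gm9825 (right). The pseudogene part is hardly visible in the 6 WT libraries, is largest in the 3 KO vehicle libraries and KO DOX mouse 18, and is smaller in KO DOX mice 19 and 20.

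The share of the pair's counts that fell on the pseudogene sorted the libraries into 3 levels. Atp6v0c-ps2 held 0% to 0.276% of the pair's counts in the 6 WT libraries. For the 0 of 983 counts in mouse 3, the 95% exact binomial interval was 0% to 0.375%. The share was 74.3% (95% exact binomial interval 71.0% to 77.5%), 75.8% (72.7% to 78.7%) and 76.7% (73.1% to 79.99%) in KO vehicle mice veh_3393, veh_3394 and veh_3395. It was 78.9% (75.7% to 81.9%) in KO DOX mouse 18, but 33.6% (30.7% to 36.7%) in mouse 19 and 32.8% (29.9% to 35.9%) in mouse 20. Mice 19 and 20 were thus close to each other and far from the other 4 libraries with their genotype label, beyond counting error. WT DOX mouse 21 had 0.230%, like the other WT mice.

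Gm9825 and its parent Rnps1 split in the same 3 levels, although they share no sequence match with the first pair at the thresholds used (90% identity over 200 bases). Gm9825 was counted at 2, 2 and 8 in WT vehicle mice and 10, 11 and 12 in WT DOX mice. It was counted at 161, 153 and 129 in KO vehicle mice veh_3393, veh_3394 and veh_3395 and at 154, 88 and 68 in KO DOX mice 18, 19 and 20. All 6 KO-labelled libraries were above all WT libraries, with mice 19 and 20 again the lowest of the 6. Mean levels were 0.159 ± 0.138 CPM (SD, n = 3) in WT vehicle, 0.368 ± 0.0286 in WT DOX, 5.80 ± 0.309 in KO vehicle and 3.97 ± 1.84 in KO DOX hearts. KO was 37.1-fold (21.02 to 72.34) above WT under vehicle and 10.7-fold (7.49 to 15.9) above it under DOX, from pooled counts.

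Rnps1 was counted at 496, 522 and 549 in WT vehicle, 651, 729 and 1065 in WT DOX, 372, 374 and 333 in KO vehicle and 356, 505 and 488 in KO DOX mice, each in the order of mice given above. In the edgeR test of KO against WT the log2 fold change of Rnps1, which was not among the transcripts the choice named, was -0.54 in vehicle-treated mice (adjusted p = 0.0525) and -0.65 in DOX-treated mice (adjusted p = 0.0639), with an SE of 0.14 in each. Neither passed the threshold of 0.05 in edgeR, but in each treatment the WT and KO libraries did not overlap. DESeq2 called both (adjusted p = 0.00947 and 0.00230), as did limma-voom (0.000607 and 0.0132) and edgeR without a filter (0.00609 and 0.000400). In the vehicle comparison 5 other alternatives also passed, those without TMM, with the filter of 1 CPM, or without mouse 1, 21 or 18 (adjusted p = 0.0413 to 0.0495). In the DOX comparison those without mouse 2 or 21 passed (0.0465 and 0.0169). Gm9825, which was chosen on its genotype difference, is near-identical to Rnps1, and a read can fit both. These tests of Rnps1 are therefore not independent of the choice, and nothing is read from them. Gm9825 made up 0.382% to 1.51% of the pair in WT libraries, 30.2%, 29.0% and 27.9% in KO vehicle mice veh_3393, veh_3394 and veh_3395, 30.2% in KO DOX mouse 18, 14.8% (12.1% to 17.96%) in mouse 19 and 12.2% (9.62% to 15.2%) in mouse 20. The coefficient of variation over the 12 libraries was 102% for Gm9825, 27.4% for Rnps1 and 16.0% for their sum. Under vehicle the sums of WT and KO hearts overlapped, at 20.8 ± 2.33 and 19.95 ± 0.280 CPM (SD, n = 3). Under DOX they did not overlap, at 27.2 ± 3.64 CPM in WT and 21.1 ± 0.862 CPM in KO hearts, and WT was 1.31-fold (1.23 to 1.39) higher from pooled counts.

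**Figure D2:**
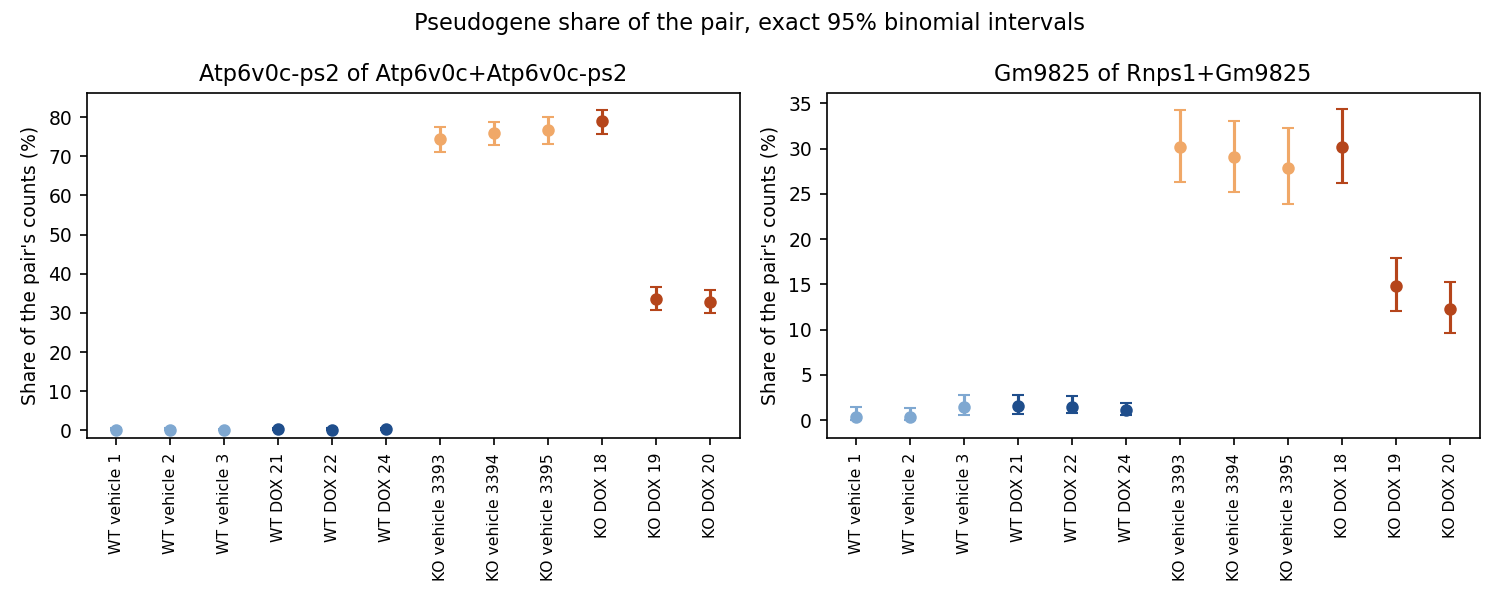
Share of the pair's counts, in percent, assigned to Atp6v0c-ps2 (left) and to Gm9825 (right) in each of the 12 libraries, with exact 95% binomial intervals. In both panels KO DOX mice 19 and 20 sit apart from the other 4 libraries labelled KO, at 33.6% and 32.8% against 74.3% to 78.9% on the left and at 14.8% and 12.2% against 27.9% to 30.2% on the right.

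Differences between KO DOX mouse 18 and mice 19 and 20 in other transcripts stood beside this split. Mouse 18 had 1088 CPM of atrial markers against 5.78 and 2.66 CPM in mice 19 and 20, and 0.709 CPM of the 3 erythroid markers against 163 and 45.9 CPM. The 4 fibroblast markers summed to 1013 CPM in mouse 18 against 541 and 545 CPM, the 4 macrophage markers to 113 against 60.3 and 62.8 CPM, and the 3 adipocyte markers to 15.7 against 0.220 and 0.732 CPM. No marker on these lists was at 0 in all 12 libraries. Among KO vehicle mice, veh_3394 had 1264 CPM of atrial markers and a share of 75.8%, and veh_3393 and veh_3395 had 1.67 and 1.58 CPM and shares of 74.3% and 76.7%. The erythroid sum was 38.8 to 135 CPM in WT vehicle and 0.144 to 0.395 CPM in WT DOX mice, and in both groups the share was at most 0.276%. Over the groups, in the order WT vehicle, WT DOX, KO vehicle and KO DOX, the fibroblast sum ranged from 583 to 727, 668 to 848, 514 to 765 and 541 to 1013 CPM. The part of these cell types in the split of the KO DOX mice was not tested.

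By contrast, Gm36684 kept mice 19 and 20 with the other KO-labelled hearts. Gm36684 is a long noncoding RNA gene of RefSeq on chromosome 17 whose span also holds the sperm motility kinase genes Smok2a and Smok2b; it has no GENCODE M21 entry, so no length or position was used. It was counted at 0 in the 3 WT vehicle mice and at 0, 0 and 1 in WT DOX mice 21, 22 and 24. The counts were 42, 41 and 25 in KO vehicle mice veh_3393, veh_3394 and veh_3395 and 37, 51 and 64 in KO DOX mice 18, 19 and 20. Mice 19 and 20 had the highest counts, so their values were not between the WT and KO levels, and their Pde10a levels were within the range of the other 4 KO-labelled hearts. Levels were 1.40 ± 0.293 CPM (SD, n = 3) in KO vehicle and 1.93 ± 0.507 CPM in KO DOX hearts, which overlapped. With a floor of 3 counts per library for the libraries at 0, KO was at least 12.1-fold higher than WT under vehicle. Under DOX the pooled ratio was 174 (30.7 to 6914), on 1 WT count.

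The antisense transcript 6430562O15Rik had no count in any KO vehicle heart and was counted in all KO DOX hearts. It lies on the minus strand at chr13:99396924-99412876, within the span of Mrps27, a mitochondrial ribosomal protein gene on the plus strand, and shares 506 exon bases with it, 8.47% of its own exons. The counts were 57, 71 and 67 in WT vehicle mice, 48, 39 and 28 in WT DOX mice, 0, 0 and 0 in KO vehicle mice, and 15, 12 and 46 in KO DOX mice 18, 19 and 20. WT hearts were at least 21.6-fold higher under vehicle, but under DOX the groups overlapped, at 1.32 ± 0.468 CPM in WT and 0.934 ± 0.730 CPM (SD, n = 3) in KO hearts. Here it was mouse 20, not mice 19 and 20 together, that was highest. Mrps27 was at 50.4, 41.1, 51.4 and 51.0 CPM in WT vehicle, WT DOX, KO vehicle and KO DOX hearts, so it was as high in the KO vehicle hearts that had no count of 6430562O15Rik. The library kit marks strand, but the strand setting used in counting is not given.

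Gm49980 and AC149090.1 were apart between the genotypes, under vehicle by smaller folds than the other transcripts. Under DOX this order did not hold, with Gm49980 5.12-fold and Atp6v0c 2.66-fold apart. Gm49980 was counted at 8, 19 and 19 in WT vehicle, 13, 5 and 16 in WT DOX, 55, 44 and 40 in KO vehicle and 53, 49 and 50 in KO DOX mice. KO was 3.04-fold (2.16 to 4.34) above WT under vehicle and 5.12-fold (3.51 to 7.65) under DOX, and the vehicle and DOX libraries of each genotype overlapped. AC149090.1 is a protein-coding model on the unplaced scaffold JH584304.1, bases 52190 to 59690, minus strand. It was counted at 639, 755 and 754 in WT vehicle, 606, 603 and 632 in WT DOX, 278, 299 and 309 in KO vehicle and 430, 359 and 367 in KO DOX mice. Its levels were 28.1 ± 1.94, 20.6 ± 2.12, 11.7 ± 1.35 and 14.7 ± 1.97 CPM (SD, n = 3) in those groups, in that order. WT was 2.41-fold (2.23 to 2.61) above KO under vehicle and 1.39-fold (1.29 to 1.499) above it under DOX, with no overlap. In Gm49980, KO DOX mice 19 and 20 were at 1.79 and 1.93 CPM, within the KO vehicle range of 1.66 to 2.09 CPM. In AC149090.1 it was mouse 18, at 16.9 CPM, that came closest to the WT hearts, with mice 19 and 20 at 13.1 and 14.1 CPM.

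**Figure D3:**
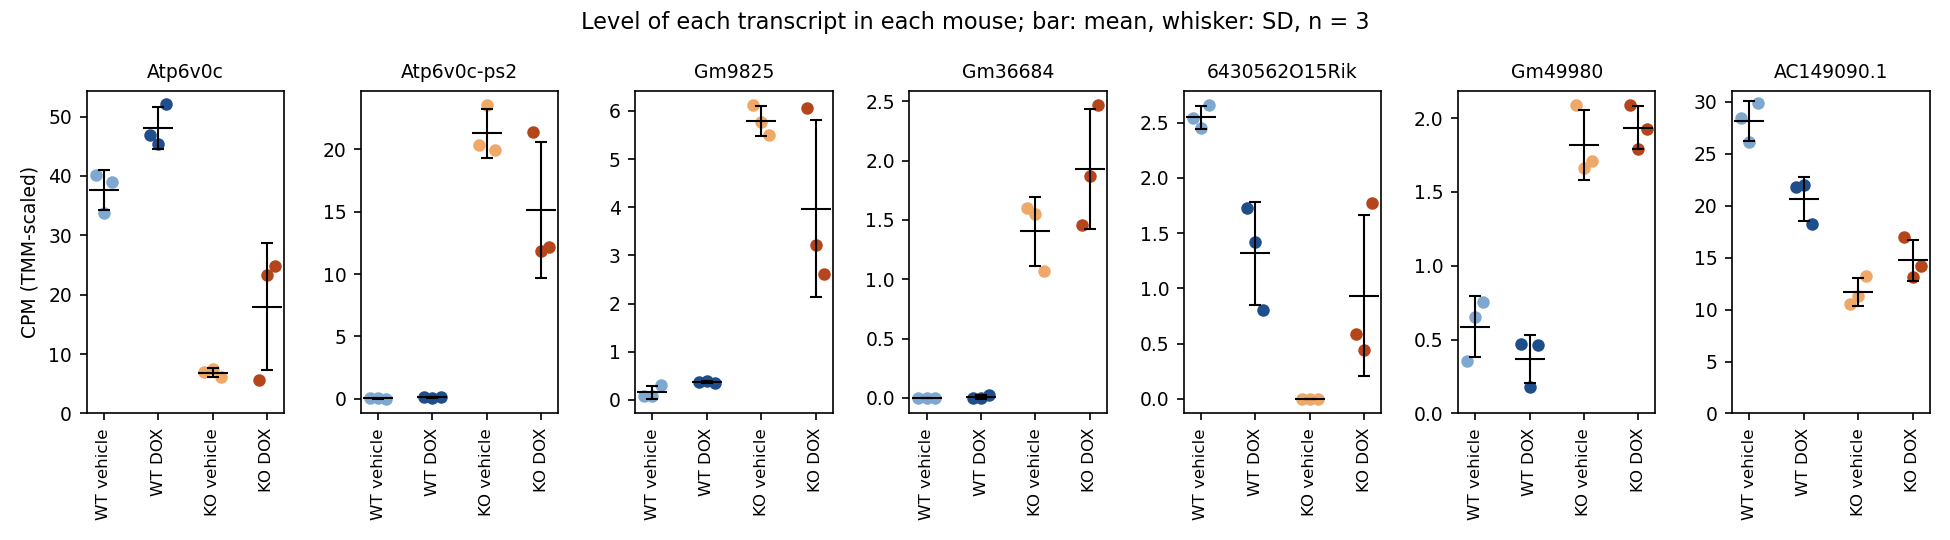
Level in CPM of the 7 transcripts in each mouse, by group, with the mean (bar) and SD (whisker) of 3 mice. In Atp6v0c, Atp6v0c-ps2 and Gm9825 the KO DOX group holds mouse 18 at the KO vehicle level and mice 19 and 20 between it and WT, while Gm36684 and Gm49980 hold all 3 at or above the lowest KO vehicle mouse.

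Read against all tested genes, 6 of the 7 transcripts, all but 6430562O15Rik, had 6 KO-labelled libraries apart from 6 WT libraries, where 3.16% of tested genes did; the choice of these transcripts used that difference, so nothing is read from the count. The gap between the groups, on the log2 CPM scale, ranked 1 of 467 such genes for Atp6v0c-ps2, 3 for Gm36684, 5 for Gm9825, 10 for Gm49980, 20 for Atp6v0c and 151 for AC149090.1. Of 180 processed pseudogenes tested, 6 were apart in this way (3.33%), the chosen Atp6v0c-ps2 and Gm9825 among them, against 3.31% of protein-coding genes. The other 4 were Gm14292, Snrpert, Gm17853 and Gm11407, each with a gap under that of Gm9825 and on chromosomes 2, 2, 9 and 4. Of 996 long noncoding genes tested 1.41% were apart. Of 72 tested symbols outside GENCODE M21 8.33% were, the chosen Gm36684 and Gm49980 among them. On chromosome 17, 5.37% of 708 tested genes were apart, and on the other chromosomes 3.03%. With each pair summed, 3 of 6 units were apart, namely Gm36684, Gm49980 and AC149090.1. No sequence was at hand for these 3, so no copies of them were looked for. Some titles carry a suffix of 1 whose meaning is not given. Among the 8 libraries with it (5 KO, 3 WT) 6 of 7 transcripts were apart, and among the 4 without it (1 KO, 3 WT) 7 of 7 were. The share of all tested genes apart in these splits is not given. The choice of the transcripts used these same libraries, so nothing is read from these counts either.

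DOX was compared with vehicle within each genotype by edgeR's quasi-likelihood test with Benjamini-Hochberg adjustment over all tested genes; differences below are log2 fold changes. In WT hearts 1 of the 7 transcripts passed, AC149090.1, which fell by 0.45 (SE 0.13, adjusted p = 0.0322), with all 3 DOX mice below all 3 vehicle mice; 18.6% of all tested genes passed. This call did not hold when mouse 2, 3, 22 or 24, all WT, was left out (adjusted p = 0.0592 to 0.123). The WT vehicle and WT DOX libraries also entered the genotype differences that chose the transcripts. The AC149090.1 call is therefore not independent of that choice. Summed over 3 mice, Atp6v0c-ps2, Gm36684 and Gm9825 had 3, 0 and 12 counts in WT vehicle and 10, 1 and 33 in WT DOX hearts. These transcripts passed the filter through the KO-labelled libraries and were this low in WT, so nothing is read from the 1 of 7. Atp6v0c had a difference of 0.35 (SE 0.35, adjusted p = 0.489), with its 3 DOX libraries above its 3 vehicle libraries. Without KO DOX mouse 18, which enters the shared estimate of spread, the difference in WT was 0.36 with an adjusted p of 0.0434. The sum of Atp6v0c and Atp6v0c-ps2 had a difference of 0.36 (SE 0.12, adjusted p = 0.0625) in WT, and the sum of Rnps1 and Gm9825 rose by 0.39 (SE 0.11, adjusted p = 0.0354). The latter call was lost in 7 of the 12 fits that left out a library, those without WT mouse 2, 3, 22 or 24 or without KO mouse veh_3393, veh_3395 or 20, with adjusted p-values of 0.0530 to 0.139. It was also lost with the title suffix as a covariate (adjusted p = 0.0679) and with only the 2 groups compared (0.144). 6430562O15Rik was at 2.55 ± 0.104 CPM under vehicle and 1.32 ± 0.468 CPM (SD, n = 3) under DOX in WT, a difference of -0.96 (SE 0.46, adjusted p = 0.156 by edgeR).

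In hearts labelled KO, 0 of the 7 transcripts passed the edgeR test of DOX, and 0.0136% of all tested genes did. DESeq2 and limma-voom each called 1, 6430562O15Rik. At an unadjusted p under 0.05 the edgeR test had 4 of the 7, where 5.35% of all tested genes were under it. These were 6430562O15Rik, Atp6v0c, AC149090.1 and Atp6v0c-ps2. The KO vehicle libraries are 1 arm of this contrast and also entered the genotype differences that chose the transcripts, and Atp6v0c and its pseudogene share reads, so nothing is read from this count. For 6430562O15Rik, DOX hearts were at least 7.86-fold above the vehicle hearts at 0, with a floor of 3 counts per library (adjusted p = 0.132 by edgeR). Atp6v0c had a difference of 1.39 (SE 0.38, adjusted p = 0.493), which rested on which mice were in the fit. Without mouse 18 it rose by 1.81 (adjusted p = 0.000102), and without mouse 19 or 20 the differences were 1.16 and 1.09 (adjusted p = 0.999 in both). Atp6v0c-ps2 had a difference of -0.49 (SE 0.22, adjusted p = 0.880) with all mice and of -0.82 (adjusted p = 0.157) without mouse 18. The sum of the 2 had a difference of 0.24 (SE 0.13, adjusted p = 0.997). The pseudogene share of the pair was 75.6% ± 1.18 under vehicle and 48.5% ± 26.4 under DOX in KO (SD, n = 3), a difference of -27.1 percentage points (exact two-sided permutation test, p = 0.4). For Gm9825 the difference was -9.96 points (exact permutation p = 0.3). The smallest p this design allows is 0.1, and Benjamini-Hochberg adjustment over the 4 share tests gave 0.4 for each.

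**Figure D4:**
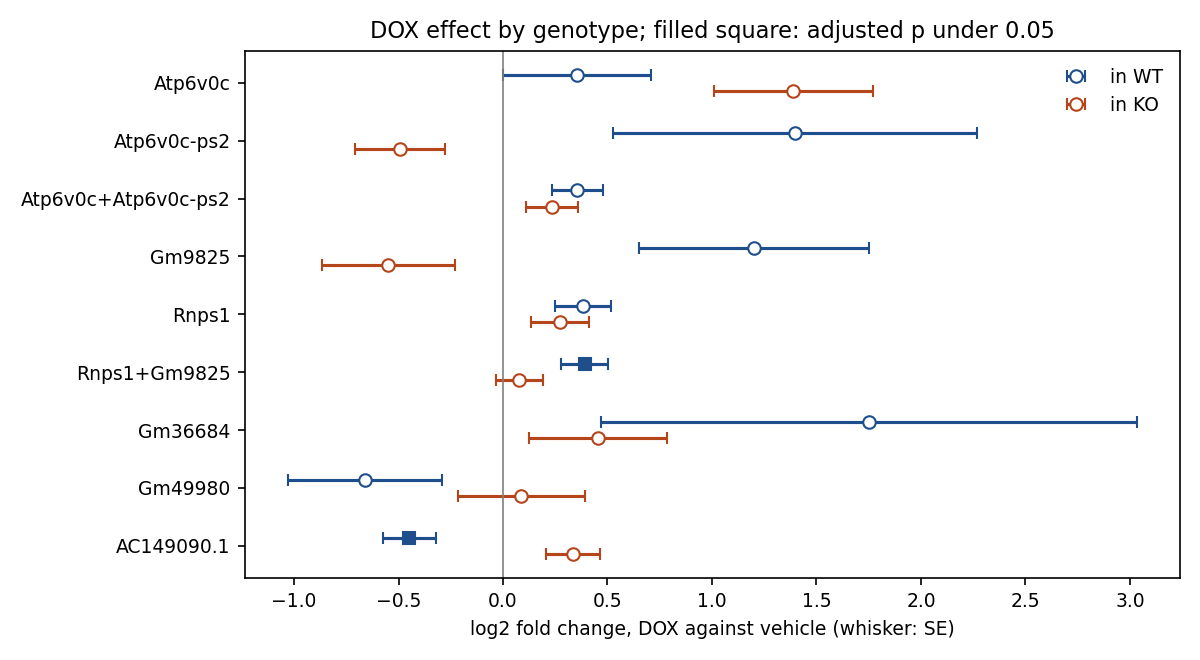
Log2 fold change of DOX against vehicle, with SE whiskers, in WT (blue) and KO-labelled (orange) hearts for 6 of the transcripts, Rnps1 and the sums of both pairs. 6430562O15Rik is not drawn because its KO vehicle libraries are all at 0. Gm36684 is drawn, but its WT point rests on 1 count in WT DOX mouse 24 against 0 in every WT vehicle library. The WT points of Atp6v0c-ps2 and Gm9825 also rest on few counts. Summed over each group, these were 3 and 12 in WT vehicle and 10 and 33 in WT DOX. The filled squares, AC149090.1 and the sum of Rnps1 and Gm9825 in WT, passed the threshold of 0.05.

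The interaction, which subtracts the DOX effect of WT hearts from that of KO hearts, is also the difference of the 2 genotype differences that chose these transcripts, so it is a description here. It passed for 1 of the 7, 6430562O15Rik (adjusted p = 0.0312 by edgeR), and for 0.21% of all tested genes. AC149090.1 had an interaction of 0.78 (SE 0.18, adjusted p = 0.105), its level going from 28.1 to 20.6 CPM under DOX in WT and from 11.7 to 14.7 CPM in KO hearts. DESeq2 and limma-voom called it (adjusted p = 0.00842 and 0.00925), and edgeR did so when no filter was used (0.00929) or WT DOX mouse 21 was left out (0.0443). Without a filter Atp6v0c and Gm9825 passed as well (adjusted p = 2.79e-05 and 0.0208), and without KO DOX mouse 18 so did Atp6v0c (0.0111). The 6430562O15Rik call was lost in 8 of 12 fits that each left out 1 library, namely WT mouse 2, 3, 22 or 24, any KO vehicle mouse, or KO mouse 20 (adjusted p = 0.0567 to 0.112).

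Genes of the rest of the proton pump were compared in the same fit. Of 29 other genes for V-ATPase subunits, accessory and assembly factors, 21 were tested. In DOX-treated WT hearts 1 rose and 0 fell, where 18.6% of all tested genes passed: Atp6v0a1, a large membrane subunit of the V0 sector, by 0.42 (adjusted p = 0.0357 by edgeR), from 87.7 ± 6.33 to 117 ± 22.6 CPM (SD, n = 3). In KO against WT hearts 0 of 21 passed under vehicle, where 2.88% of all tested genes did, and 0 of 21 under DOX, where 0.42% did. At an unadjusted p under 0.05 there were 6 and 2, where 26% and 15.5% of all tested genes were. DESeq2 called 2 and 1 of the list, and limma-voom 8 and 2. The shares of all tested genes that these methods called are not given, so no excess is read from their counts. For DOX in KO, 0 passed in edgeR and 0 were under an unadjusted 0.05, against 0.0136% and 5.35% of all tested genes, and DESeq2 and limma-voom called 0. The list's median log2 fold change for KO against WT was -0.09 under vehicle and -0.04 under DOX, against 0.02 and 0.01 over all tested genes, and its values ran from -0.49 to 0.49 and from -0.50 to 0.24. Atp6v0b, the other proteolipid gene of the list, was at 77.7 ± 18.9, 65.3 ± 1.18, 61.1 ± 3.86 and 57.8 ± 2.16 CPM (SD, n = 3) in WT vehicle, WT DOX, KO vehicle and KO DOX hearts.

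Genes next to the transcripts were compared next. Of 13 protein-coding genes within 100 kb of Atp6v0c, Atp6v0c-ps2, Gm9825 or 6430562O15Rik, 12 were tested, and 0 passed in KO against WT under either treatment, where 2.88% and 0.42% of all tested genes did. At an unadjusted p under 0.05 there were 2 and 2, against 26% and 15.5% of all tested genes. Under vehicle DESeq2 called 1 and limma-voom 3, and under DOX they called 0 and 2, again without a share over all tested genes for these methods. Amdhd2, an amino sugar deacetylase gene 100 bases from Atp6v0c on the same strand, had a KO against WT difference of -0.74 without DOX (adjusted p = 0.0554) and of -0.51 with it (adjusted p = 0.234), with an SE of 0.19 in each. Tbc1d24, the tested neighbour on the other side, had differences of 0.25 and 0.12 (adjusted p = 0.274 and 0.713). Trim24 beside Atp6v0c-ps2 had -0.15 and -0.23 (adjusted p = 0.434 and 0.349), and Col28a1 beside Gm9825 had 0.95 and 0.53 (adjusted p = 0.140 and 0.541). Mrps27 had 0.03 and 0.31 (adjusted p = 0.931 and 0.368) and Map1b, beside 6430562O15Rik, 0.56 and 0.55 (adjusted p = 0.304 and 0.450). Ptcd2, on the other side of 6430562O15Rik, had 0.0049 and 0.36 (adjusted p = 0.988 and 0.286); with Amdhd2 it was 1 of the 2 neighbours under an unadjusted 0.05 in the DOX comparison. Pdpk1, a kinase upstream of AKT whose gene is 12942 bases from Atp6v0c, rose under DOX in WT by 0.88 (SE 0.18, adjusted p = 0.0161), the 1 neighbour of 12 that passed in that comparison, where 18.6% of all tested genes did; it is named because its value was seen to pass.

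The genes whose pattern was most like each transcript were those with the highest Pearson r of log2 CPM over the 12 libraries, which share genotype, treatment and depth, so r is given as a description. For Atp6v0c these were Zfp52 (r = 0.97), Zfp943 (r = 0.97) and Spsb3 (r = 0.95), all on chromosome 17, 2.60, 2.09 and 0.717 Mb away. Zfp52 was counted at 147, 134 and 105 in KO vehicle mice and at 128, 243 and 209 in KO DOX mice 18, 19 and 20, against 257 to 569 in WT mice. Spsb3 was counted at 364, 411 and 348 in KO vehicle mice and at 445, 593 and 622 in KO DOX mice 18, 19 and 20, against 578 to 942 in WT mice. In CPM, mice 19 and 20 lay above mouse 18 and below every WT mouse in both genes, the order seen for Atp6v0c, which is what a high r selects for. For Atp6v0c-ps2 the closest were Tmem181c-ps (r = 0.99), Wdfy1 (r = 0.98) and Slc5a6 (r = 0.97), on chromosomes 17, 1 and 5. Tmem181c-ps, a pseudogene at chr17:6613753-6639790, had 0 counts in the 6 WT libraries and 36 to 61 in the 6 libraries labelled KO. Wdfy1 had 601 to 712 counts in KO and 218 to 380 in WT libraries. In both genes mice 19 and 20 were within the range of the other 4 KO-labelled mice in CPM.

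**Figure D5:**
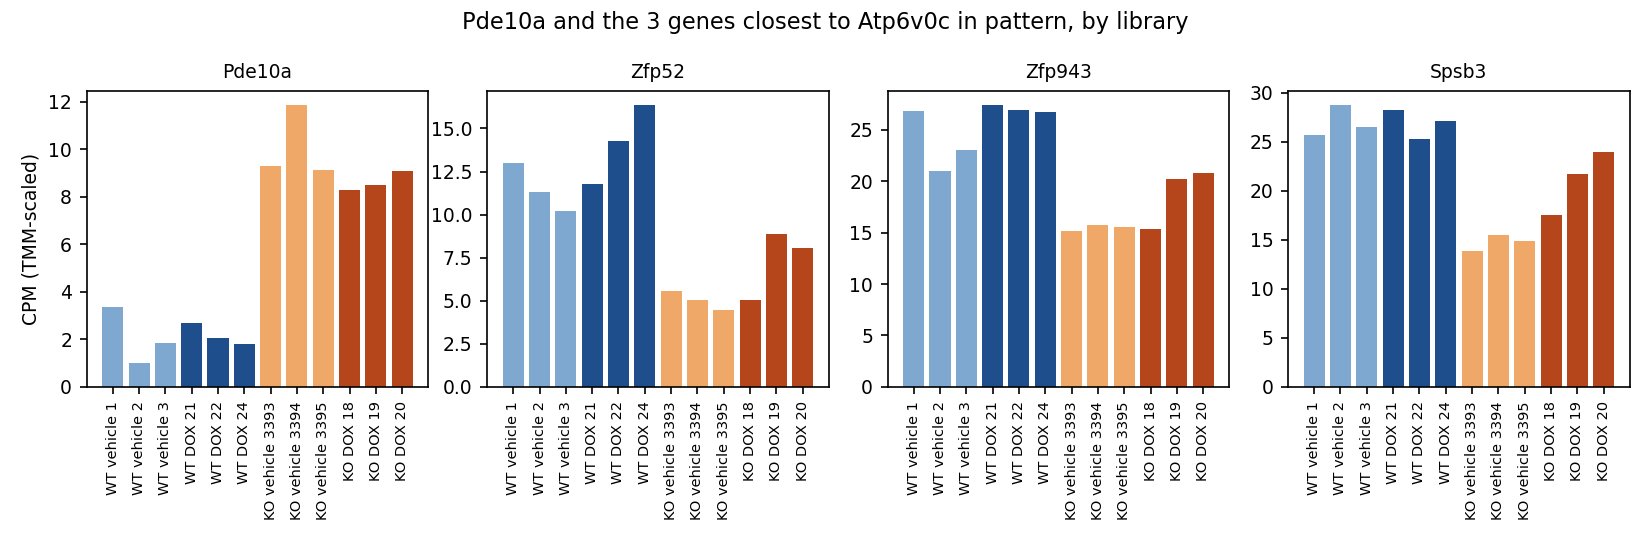
Level in CPM of Pde10a and of the 3 genes with the pattern closest to Atp6v0c in each of the 12 libraries. Pde10a is at a similar level in all 6 libraries labelled KO, whereas in Zfp52, Zfp943 and Spsb3 the KO DOX mice 19 and 20 stand between mouse 18 and the WT mice.

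For Gm9825 the closest genes were Kcnh2, Vav2 (both r = 0.97) and Wdfy1 (r = 0.96), and for Gm36684 Tmem181c-ps (r = 0.99), Wdfy1 (r = 0.98) and Lrsam1 (r = 0.96). For 6430562O15Rik they were Spsb3 (r = 0.93), Leo1 (r = 0.90) and Naip6 (r = 0.88), the last on the same chromosome, 13, at a distance of 0.868 Mb. For Gm49980 they were Grin2d, Cdc25a and Gpr183 (r = 0.93, 0.92 and 0.92). For AC149090.1 they were Pecam1, an endothelial adhesion molecule (r = 0.94), Lrmda (r = 0.93) and Plpp1 (r = 0.92). Pecam1 was at 150 to 174 CPM in WT and 130 to 143 CPM in KO-labelled libraries, and the 4 endothelial markers summed to 564 to 814 CPM in WT vehicle, 456 to 542 in WT DOX, 459 to 520 in KO vehicle and 467 to 609 in KO DOX hearts. The part of the endothelial level in the AC149090.1 difference was not tested; in a bulk sample, fewer cells of a type and less RNA per cell cannot be told apart. Among the 7 transcripts themselves, r was 0.98 between Atp6v0c-ps2 and Gm36684, 0.97 between Atp6v0c-ps2 and Gm9825, and -0.87 between Atp6v0c and Atp6v0c-ps2.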

How the data were processed

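For each library the authors deposited a table of raw counts, whole numbers by gene symbol and not normalized. Libraries were made from 200 ng of total RNA with a poly(A), strand-marking kit, per the labels' protocols. Per the submitters' processing notes, the tools were fastp 0.20.0, STAR 2.7.0f, featureCounts and Subread 1.6.4. The build, the annotation, the strand setting and the handling of reads with several matches were not given in the sources used here. Genes were filtered with filterByExpr by group, scaled with TMM and fitted with 1 mean per group over the 12 libraries in edgeR 4.0.16 (R 4.3.3), since 3 against 3 leaves few degrees of freedom. The quasi-likelihood F test was used with Benjamini-Hochberg adjustment over 14757 genes and a threshold of 0.05. Each SE came from the F statistic of its fold change. Each edgeR p-value sets the difference against the spread between mice, estimated over all groups in the fit with information shared across genes. For sums, the 2 rows were replaced by their total and the fit repeated. The code was tested on simulated data. CPM used TMM-scaled totals, and RPKM divided mean CPM by annotated exon length in kilobases. Copies were found with BLAST+ 2.17.0 among GENCODE M21 transcripts (at least 90% identity over 200 bases). Gm36684, Gm49980 and AC149090.1 had no sequence among these and were not searched. Of the symbols, 98.4% were in GENCODE M21 on GRCm38.

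The transcripts and gene lists were chosen with earlier results of these data known. Most genes were named by rule. The rule took the 7 transcripts, copies with at least 10 counts in all, the nearest tested coding gene on each side and any overlapping one. It also took the 3 genes with the highest r (prior count of 2), Atp6v0b, called V-ATPase genes and Pde10a. Named outside this rule were Atp6v0c-ps1, Pdpk1, Smok2a, Smok2b, Gm14292, Snrpert, Gm17853 and Gm11407. Alternatives were DESeq2 1.42.0, limma-voom 3.58.1 with quality weights, DESeq2 size factors, no TMM, no filter, a filter of 1 CPM in 3 libraries, only the groups compared, the title suffix as a covariate, copies summed, and each library left out. Depth limits low counts: at 0 counts a floor of 3 counts per library was used.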

Additional observations from a re-analysis of the deposited data

Results flagged for a closer look

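The DOX effect on 6430562O15Rik differed between the genotypes by the interaction test (adjusted p = 0.0312 by edgeR), the 1 call among the 7 transcripts in that fit; DESeq2 and limma-voom also called AC149090.1 (adjusted p = 0.00842 and 0.00925). Its counts went from 57, 71 and 67 to 48, 39 and 28 in WT hearts and from 0, 0 and 0 to 15, 12 and 46 in hearts labelled KO, where DOX was at least 7.86-fold higher. The KO vehicle libraries at 0 are part of what chose this transcript, so the test is not independent of the choice. In KO, where the DOX contrast alone had an adjusted p of 0.132 by edgeR, all 3 DOX mice were above all 3 vehicle mice, and mouse 20 held 46 of the 73 DOX counts.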

How the results depend on the processing

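No paired analysis was possible because the mouse numbers differ between the groups. Shares over all tested genes are given for the main edgeR fit only, so no excess is read from the counts of other fits. Among the 7 transcripts, edgeR called 1 for DOX in WT, and 0 without TMM or with only the 2 groups compared, 2 without a filter and 3 with limma-voom, and 0 to 2 with a library left out. For DOX in KO the count was 0, but 2 without a filter, 1 with DESeq2 and with limma-voom, and 0 to 1 with a library left out. For the interaction it was 1, but 4 without a filter, 2 with DESeq2 and with limma-voom, and 0 to 2 with a library left out. Those apart between all KO and all WT libraries numbered 6, 3 with the copies that were found summed, and 6 to 7 with a library left out. The Atp6v0c and Atp6v0c-ps2 sum for DOX in WT (0.36) passed without TMM (0.41, adjusted p = 0.0363) and with limma-voom (0.30, adjusted p = 0.0436), and ranged from 0.29 to 0.41 with a library left out; without KO DOX mouse 18 it was 0.36 (adjusted p = 0.0407). In KO it ranged from 0.15 to 0.36. The AC149090.1 call for DOX in WT was lost without TMM (adjusted p = 0.0547) and with only the 2 groups compared (0.0967). V-ATPase calls for DOX in WT were 1, but 2 without TMM and with DESeq2, 4 without a filter, 7 with limma-voom, 0 with only the 2 groups or with the title suffix, and 0 to 5 with a library left out. For KO against WT under vehicle they were 0, but 1 without a filter or with the filter of 1 CPM, 2 with DESeq2, 8 with limma-voom and 0 to 4 with a library left out. Under DOX they were 0, but 1 without a filter and with DESeq2, 2 with limma-voom and 0 to 1 with a library left out. Neighbours called for DOX in WT were 1, but 2 without TMM and with limma-voom, 0 with only the 2 groups and 0 to 2 with a library left out. For KO against WT under vehicle they were 0, but 2 without a filter, 1 with DESeq2, 3 with limma-voom and 0 to 2 with a library left out; under DOX they were 0, but 1 without a filter and 2 with limma-voom. The Gm36684 difference for DOX in WT rested on 1 count in WT DOX mouse 24, was 0.0 without it and reached 2.14 with another library left out; its interaction, -1.30, ranged from -1.69 to 0.46, the latter without that mouse, and was 0.37 with limma-voom. The cause of the other changes was not tested.

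With 3 mice a group, exact permutation tests of the shares cannot go below 0.1. Counts under about the floor of 3 in a library give folds that depend on the floor. Whether reads matching both a gene and its pseudogene were dropped, assigned to 1 place or shared is not given, so a level of Atp6v0c, Atp6v0c-ps2, Gm9825 or Rnps1 taken alone is uncertain, and the sum counts only the reads assigned to either. All positions rest on symbols matched to GENCODE M21, and the authors' annotation is not named.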
